A study of Drosophila melanogaster with 3 samples.

Results

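The enGFP+Yki+Aac11-IR library is 1 of the 3 RNA-sequencing libraries of a study of the Aac11 protein in Drosophila melanogaster larvae, and it was chosen here by its label and described across all 13990 genes of its own table. Its label names engrailed-GFP, Yorkie and a hairpin against Aac11, and a matching Yorkie library lacking the hairpin was not analysed here. The other 2 libraries carry the Actin5C-Gal4 driver, 1 with a hairpin against Aac11 (Act-Aac11-IR) and 1 with no hairpin in its label (Act). The labels state wandering L3 larvae, kept at 25 degrees Celsius and selected for GFP, with 10 to 20 animals pooled for each Act genotype. They do not give the driver of Yorkie, the alleles or the number of animals in the enGFP+Yki+Aac11-IR library. The source label reads wing disc cells for all 3 libraries, whereas the extraction protocol describes larvae ground in Trizol.

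Yorkie is the transcriptional coactivator that the Hippo pathway restrains. When the kinases Hippo and Warts are inactive, Yorkie enters the nucleus, binds the DNA-binding protein Scalloped and raises transcription of genes for growth, division and survival. Engrailed marks the posterior compartment of the wing disc, the epithelial sac that forms the adult wing and part of the thorax, and transgenes under engrailed control act in that compartment. Aac11 is the fly ortholog of mammalian API5, an inhibitor of apoptosis that binds the nuclear protein Acinus.

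Levels are given in FPKM, a measure of fragments per unit of transcript length and of library size, as the authors deposited them. Percentiles are ranks within the library, from 0 to 100 for the highest gene. There is 1 library per group, so no error or test can be given for any value. The 2 deposited tables were normalized separately, so no ratio was formed between them. The libraries also differed in shape. The share of genes listed at 0 was 24.7% in the enGFP+Yki+Aac11-IR library, 6.64% in Act-Aac11-IR and 11.2% in Act. A like FPKM therefore has different percentiles in these libraries. The step between low FPKM values gave a depth of about 17600000 fragments for the enGFP+Yki+Aac11-IR library, against 30900000 for Act-Aac11-IR and 5900000 for Act. A gene of 1000 nt reaches 0.213 FPKM with 3 fragments at this depth of the enGFP+Yki+Aac11-IR library.

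The transcriptome of the enGFP+Yki+Aac11-IR library was split between genes that were well measured and genes near 0. Of 13990 genes, 7682 (54.9%) had at least 1 FPKM, 2848 lay above 0 and below 1 FPKM, and 3460 (24.7%) were listed at 0. The median gene had 3.52 FPKM and the upper quartile lay at 31.2 FPKM. At least 100 FPKM was reached by 1081 genes (7.73%) and at least 1000 FPKM by 120 genes. A value of 0 need not mean absent RNA. The proteasome subunit gene Prosalpha1, which every cell uses, was listed at 0, as was its paralog CG30382 (current symbol Prosalpha1R). Genes are therefore described only as listed at 0. The share listed at 0 moved with transcript length, at 60.1% in the tenth of genes with the shortest transcripts and 11.1% in the tenth with the longest.

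**Figure D1:**
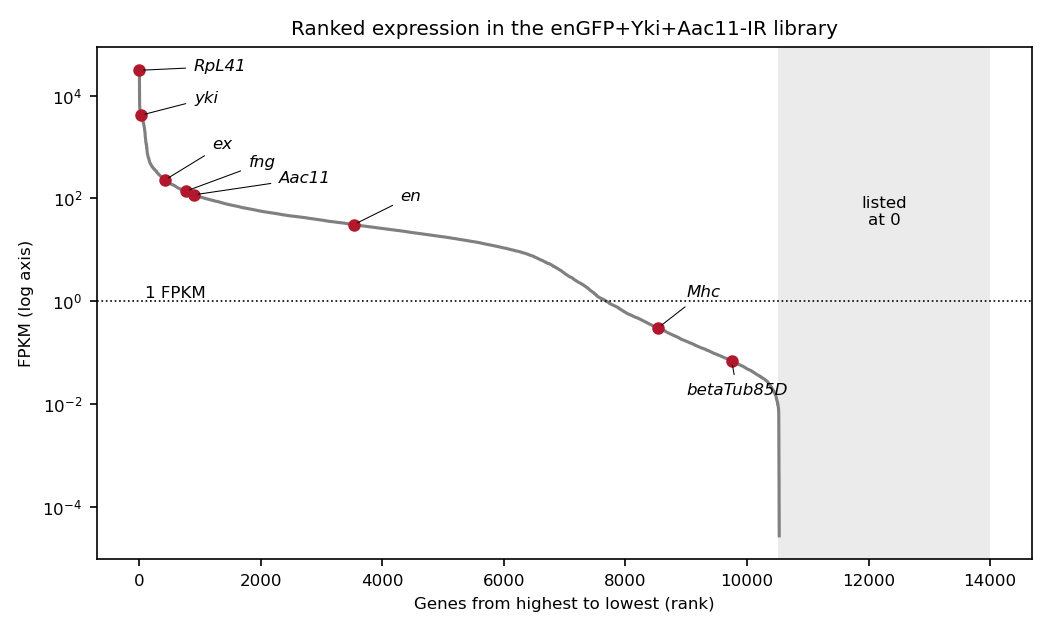
FPKM on a log axis for all genes of the enGFP+Yki+Aac11-IR library, from the highest to the lowest, with red points for named genes and grey shading for the 3460 genes listed at 0. The gene yki, at 4153 FPKM, sits among the ribosomal protein genes, whereas en, at 30.8 FPKM, lies on the shallow part of the curve.

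The yki RNA stood at the level of the most abundant housekeeping RNAs. It measured 4153 FPKM and was gene number 26 of 13990, between the ribosomal protein genes RpS30 at 4158 FPKM and RpL15 at 4116 FPKM. Ranked by FPKM times the length of the longest annotated transcript, an approximation of its share of fragments, it was number 12 with 0.468% of the total. Since yki has 4 annotated transcripts, this rank and share depend on that choice of length. In the dm6 genome the gene occupies 24065975 to 24068485 of chromosome 2R (minus strand). Reads of a yki transgene and of the gene itself cannot be told apart in a value per gene. The percentile of yki was 99.8 in the enGFP+Yki+Aac11-IR library, beside 84.8 in Act-Aac11-IR (59.7 FPKM) and 84.0 in Act (64.3 FPKM), which come from the separately normalized table.

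The other marker genes were all measured. The gene ex, which encodes the Hippo pathway scaffold Expanded (chromosome 2L, 431227 to 448701, plus strand), had 228 FPKM at percentile 97.0 in the enGFP+Yki+Aac11-IR library, beside percentile 77.4 in Act-Aac11-IR and 65.4 in Act. It overlaps crq, a phagocytic receptor gene on the other strand, which had 30.2 FPKM. The glycosyltransferase gene fng, which modifies Notch (chromosome 3L, 20925891 to 20949512, minus strand), had 138 FPKM, and about 4265 fragments lay behind this value, giving a 95% Poisson interval for counting error alone of 134 to 142 FPKM. The posterior selector gene en (chromosome 2R, 11524006 to 11528210, minus strand) had 30.8 FPKM at percentile 74.8, beside percentile 49.8 in Act-Aac11-IR and 42.2 in Act. Over all genes the median was 3.52 FPKM here, 12.7 FPKM in Act-Aac11-IR and 15.4 FPKM in Act, so these percentiles have no common scale.

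Aac11, the target of the hairpin, was well measured in this library. It had 117 FPKM at percentile 93.6, with a 95% counting interval of 114 to 121 FPKM from about 4666 fragments. Beside this, the percentile was 88.5 in Act-Aac11-IR and 93.6 in Act. Whether RNA of the hairpin itself adds to the value of the gene was not tested, and without a library that has Yorkie and no hairpin the depletion in this genotype could not be measured. Its current symbol is cass, and it occupies 17474912 to 17477888 of chromosome 2L (minus strand).

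The partners of Aac11 and the genes of mRNA splicing and export were measured throughout. All 29 listed genes had at least 1 FPKM (54.9% of all genes), 14 of them at least 100 FPKM (7.73% of all genes). Their median was 96.1 FPKM, at percentile 91.9, against 3.52 FPKM over all genes. The Acinus gene hkl had 142 FPKM. Its partners in the ASAP complex, RnpS1 and Bin1 (the fly SAP18), had 104 and 146 FPKM. The exon junction complex genes tsu, eIF4AIII and mago had 150, 139 and 96.1 FPKM, whereas btz, its cytoplasmic member, had 30.1 FPKM. The splicing factor genes B52 and SF2 had 440 and 376 FPKM, and the export helicase gene Hel25E 397 FPKM. The bulk export receptor gene sbr stood at 41.7 FPKM beside 154 FPKM for its cofactor gene Nxt1. The lowest members were nxf2, at 15.4 FPKM, and the THO complex gene Hpr1, at 28.7 FPKM.

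Genes of the Hippo pathway and its partners were nearly all measured, and yki stood far above the rest of them. Of 49 genes, 47 had at least 1 FPKM, against 54.9% of all genes, the median was 54.8 FPKM at percentile 85.3, and the next highest after yki was ex. The DNA-binding partner sd had 130 FPKM, beside 4153 FPKM for yki. The alternative partners hth and tsh had 168 and 78.3 FPKM, and vg, which competes for Scalloped, had 53.4 FPKM. The cofactor gene CG11009 (current symbol Wbp2) had 21.6 FPKM and the corepressor gene CG10741 (current symbol Tgi) 48.0 FPKM.

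Within the pathway, the kinases and the atypical cadherin branch overlapped in level. The kinase genes hpo and wts had 47.0 and 23.4 FPKM, and their adaptors sav and mats 24.7 and 62.2 FPKM. Upstream of them, the genes of the apical complex measured 228 FPKM for ex, 39.0 FPKM for kibra and 28.5 FPKM for Mer. The polarity genes crb and aPKC had 70.3 and 65.4 FPKM, and l(2)gl, scrib and dlg1 had 115, 56.9 and 54.8 FPKM. In the Fat and Dachsous branch, the cadherin genes ds and ft had 87.5 and 53.6 FPKM, the kinase gene fj, which modifies both cadherins, 97.7 FPKM, the myosin gene d 140 FPKM and lft 109 FPKM. The palmitoyltransferase gene app, at 18.0 FPKM, and the ubiquitin ligase subunit gene CG4221 (current symbol Fbxl7), at 18.4 FPKM, were the low members of this branch. Only CG5375 (current symbol Schip1), at 0.785 FPKM, and the salt-inducible kinase gene CG4290 (current symbol Sik2), at 0.445 FPKM, were under 1 FPKM among the 49.

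**Figure D2:**
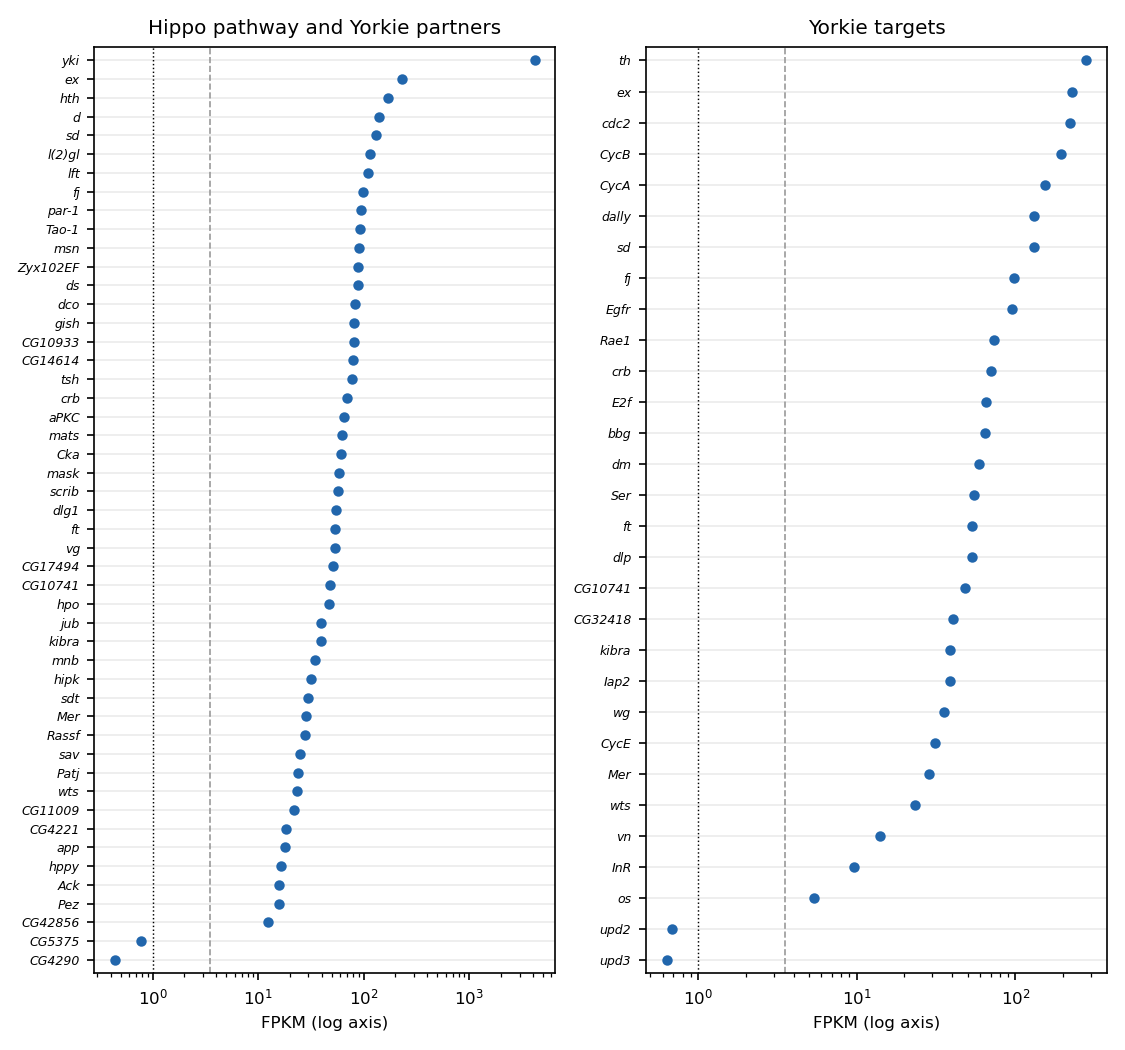
FPKM on log axes of 49 Hippo pathway genes and 30 Yorkie targets in the enGFP+Yki+Aac11-IR library, with 1 point per gene, a dotted line at 1 FPKM and a dashed line at the median of all genes, 3.52 FPKM. The point of yki at 4153 FPKM lies apart from the other pathway genes, which reach 228 FPKM, and the targets run from 279 FPKM for th to 0.637 FPKM for upd3.

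Genes known as targets of Yorkie in discs were measured for 28 of 30 members, where 54.9% of all genes were, with a median of 54.2 FPKM at percentile 85.1. Induction could not be measured, since a library of this driver lacking Yorkie was not analysed here. The list was led by th, which encodes the caspase inhibitor DIAP1, at 279 FPKM, and by the feedback gene ex. Of the other feedback genes, crb had 70.3, kibra 39.0, Mer 28.5 and wts 23.4 FPKM. The cell cycle targets ranged from 220 FPKM for cdc2 (the mitotic kinase Cdk1), 195 FPKM for CycB and 154 FPKM for CycA down to 65.1 FPKM for E2f and 31.0 FPKM for CycE. The growth regulator dm, which encodes Myc, had 58.8 FPKM. The glypican genes dally and dlp, which shape morphogen spread, had 131 and 53.1 FPKM.

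The secreted targets spanned much of the lower part of the list. The morphogen gene wg had 35.5 FPKM and the EGF receptor ligand gene vn 14.1 FPKM. The JAK/STAT ligand genes os (current symbol upd1), upd2 and upd3 had 5.38, 0.682 and 0.637 FPKM. About 21 and 23 fragments lay behind upd2 and upd3, with 95% counting intervals of 0.415 to 1.02 and 0.410 to 0.970 FPKM, so these 2 genes could not be ordered. The receptor gene dome had 51.3 FPKM, the kinase gene hop 25.8 FPKM and Stat92E 80.9 FPKM, all above their ligands. InR, the insulin receptor gene, was also low for the list at 9.62 FPKM.

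Genes that pattern the wing disc were all measured, anterior, posterior, dorsal and ventral alike. Each of the 35 compartment and patterning genes had at least 1 FPKM, against 54.9% of all genes, and their median was 40.5 FPKM at percentile 79.8. In a bulk library, fewer cells of a type and less RNA per cell cannot be told apart, so these levels do not give the size of a compartment. The posterior genes en, inv and hh had 30.8, 40.5 and 39.9 FPKM. Anterior ci had 85.3 FPKM, and ptc, the receptor gene that marks the compartment boundary, 24.6 FPKM. The dorsal selector ap had 98.8 FPKM, beside fng at 138 FPKM and the Notch ligand genes Ser and Dl at 54.8 and 40.2 FPKM.

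Of the wing pouch genes, nub had 78.9 FPKM, vg 53.4 FPKM and sd 130 FPKM. The Dpp receptor gene tkv was the highest of the patterning list at 226 FPKM, whereas dpp itself had 20.7 FPKM. Its targets salr, salm and bi had 50.6, 33.6 and 23.2 FPKM, the repressor brk 46.5 FPKM and the feedback inhibitor Dad 40.8 FPKM. Of the notum genes, the Iroquois genes ara, mirr and caup lay between 28.8 and 33.7 FPKM, with pnr at 11.7 FPKM and eyg at 11.0 FPKM. The proximal gene hth and the zinc finger gene bowl had 168 and 173 FPKM.

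**Figure D3:**
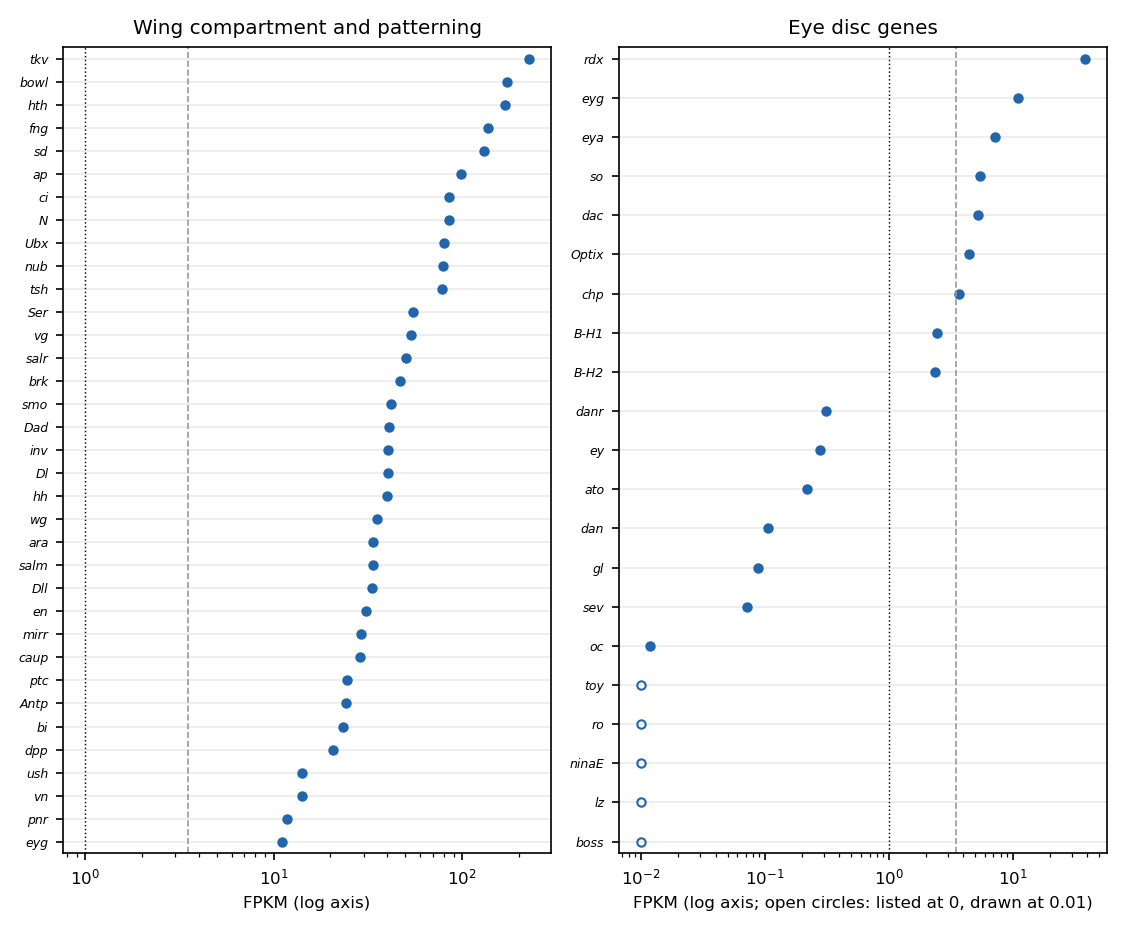
FPKM on log axes of 35 wing compartment and patterning genes and of 21 eye disc genes in the enGFP+Yki+Aac11-IR library, with a dotted line at 1 FPKM and a dashed line at the median of all genes, 3.52 FPKM. The panels have different axis ranges and open circles are genes listed at 0. The patterning genes run from 11.0 to 226 FPKM, while 12 of the eye disc genes lie under 1 FPKM, 5 of them listed at 0. Over all genes, 54.9% have at least 1 FPKM and 24.7% are listed at 0.

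Genes that are neighbours on the chromosome and share expression domains had like levels in several cases, although the pairs were picked after many values had been seen and are given as description. The homeobox genes en and inv, 14.3 kb apart, had 30.8 and 40.5 FPKM. The genes ac and sc, proneural factors 25.1 kb apart, had 18.4 and 18.1 FPKM, ara and caup had 33.7 and 28.8 FPKM, and B-H1 and B-H2 had 2.44 and 2.38 FPKM. Other neighbours differed, as nub had 78.9 FPKM and pdm2 12.7 FPKM, and wg had 35.5 FPKM beside 17.3 FPKM for Wnt6 and 0.406 FPKM for Wnt10. Of 26 pairs in all, 16 had both genes at 1 FPKM or more, 7 had both under 1 FPKM and 3 were split. Over all single genes, 54.9% had at least 1 FPKM.

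Signalling components were present at uneven levels. Of 45 genes of the Wnt, Dpp, EGFR, Hedgehog and JAK/STAT pathways, 42 had at least 1 FPKM, against 54.9% of all genes. Their median was 37.5 FPKM, against 3.52 FPKM over all genes. The beta-catenin gene arm led at 435 FPKM, followed by tkv and the EGF receptor ligand gene spi at 190 FPKM. The rhomboid protease genes that release EGFR ligands were low, with rho at 2.26 FPKM and ru at 0.210 FPKM. Of the Notch genes, N had 85.2 FPKM, and the target genes of the Enhancer of split complex had 107 FPKM for malpha, 71.4 FPKM for HLHmbeta and 4.79 FPKM for HLHmgamma. The sensory organ genes sens and ase had 1.69 and 0.588 FPKM.

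Of the homeotic genes, only Ubx and Antp reached 1 FPKM. Homeotic genes assign identities along the body axis, and Ubx specifies the haltere and is also made in the peripodial cells of the wing disc. Of the 8 genes, Ubx had 80.5 FPKM and Antp 24.2 FPKM. The head genes lab and Scr had 0.173 and 0.131 FPKM, and Dfd, pb, abd-A and Abd-B were listed at 0. In Act-Aac11-IR and in Act, 7 of the 8 had at least 1 FPKM, where 80.3% and 80.0% of all genes did. Of 21 eye disc genes, 9 had at least 1 FPKM, where 54.9% of all genes did. The 5 listed at 0 were near the 24.7% of all genes. The highest were rdx at 38.2 FPKM and eyg at 11.0 FPKM, followed by eya at 7.18, so at 5.45, dac at 5.27, Optix at 4.48 and the photoreceptor gene chp at 3.66 FPKM. The eye selector ey and the proneural gene ato had 0.278 and 0.219 FPKM, and toy, ro, boss, lz and ninaE were listed at 0. Of the leg and antenna list, 12 of 17 genes had at least 1 FPKM, among them hth, ap, rn at 62.7 FPKM and Dll at 33.1 FPKM, which the wing uses too. The members al, bab2 and dac had 20.3, 7.67 and 5.27 FPKM, and C15, ss, B-H1 and B-H2 had 4.63, 3.96, 2.44 and 2.38 FPKM. Under 1 FPKM were disco, disco-r, bab1 and Lim1, at 0.923, 0.897, 0.481 and 0.214 FPKM, besides Scr.

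Markers of larval organs other than discs differed by organ in the enGFP+Yki+Aac11-IR library. In the fat body list, 10 of 19 genes had at least 1 FPKM, near the 54.9% of all genes, with a median of 1.19 FPKM, at percentile 45.9, beside 17 of 19 in Act-Aac11-IR, where 80.3% of all genes did, and 16 of 19 in Act, where 80.0% did. The larval serum protein genes, the main products of the larval fat body, lay between 2.76 FPKM for Lsp1alpha and 7.78 FPKM for Lsp2. The highest member of the list was Cg25C, a collagen IV gene that hemocytes also express, at 17.8 FPKM. In the muscle list 8 of 22 genes reached 1 FPKM, with a median of 0.602 FPKM at percentile 42.7, beside 20 of 22 in each Act library. Myosin heavy chain, Mhc, had 0.302 FPKM and the myosin light chain gene Mlc1 0.680 FPKM, while the tropomyosin gene Tm1, which also makes non-muscle forms, had 491 FPKM. Of the midgut and Malpighian tubule list, 2 of 27 genes reached 1 FPKM. Another 17 were listed at 0, where 24.7% of all genes were, among them the trypsin genes alphaTry and betaTry and the amylase gene Amy-p. In Act-Aac11-IR and Act, alphaTry had 0.194 and 0.251 FPKM, Amy-p 0.0684 and 0 FPKM, and betaTry 0 and 0 FPKM. The listed gene LysD, at 0 here, had 102 and 28.9 FPKM there.

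Of the 18 salivary gland genes 5 had at least 1 FPKM, as did 3 of 26 neuronal genes, against 54.9% of all genes, while the 7 of 14 glial genes that did were near that share. The glue genes Sgs3 and Sgs7 had 0.684 and 3.58 FPKM and Sgs1 0.134 FPKM. These glue genes were low in the Act libraries too. In Act-Aac11-IR, Sgs3, Sgs7 and Sgs1 had 0.598, 3.48 and 0.303 FPKM, and in Act 0, 0 and 0.0437 FPKM. The highest members of the list were CrebA and sage. CrebA had 24.9 FPKM here, 24.0 FPKM in Act-Aac11-IR and 17.5 FPKM in Act, and sage had 4.97, 5.06 and 4.25 FPKM. The listed gene fkh differed, with 0.0182 FPKM here, 20.4 FPKM in Act-Aac11-IR and 10.1 FPKM in Act. Most members of this neuron and neuroblast list were low, with n-syb at 0.733 FPKM, brp at 0.0278 FPKM and VGlut at 0.0211 FPKM. The 3 that reached 1 FPKM were the membrane fusion gene Syx1A, used by most cells, at 22.8 FPKM, dpn at 12.3 FPKM and elav at 9.98 FPKM. The pan-glial gene repo had 0.0600 FPKM on about 3 fragments. The highest glial list member was bnb at 383 FPKM, followed by vari, nrv2 and Gli, which make septate junctions also in epithelia, at 165, 132 and 68.6 FPKM. Below them came loco at 15.2 FPKM, the glutamine synthetase gene Gs2 at 8.82 FPKM and the blood-brain barrier receptor gene moody at 4.39 FPKM. Of 32 testis genes, 3 had at least 1 FPKM and 11 were listed at 0, against 54.9% and 24.7% of all genes. The transcripts of these 11 ran from 358 nt for Mst84Da to 2953 nt for can, and short transcripts were more often listed at 0. The testis list had a median of 0.0928 FPKM at percentile 32.1, and the testis tubulin gene betaTub85D had 0.0684 FPKM on about 2 fragments. In Act-Aac11-IR 30 of the 32 testis genes had at least 1 FPKM, where 80.3% of all genes did. In Act 32 of the 32 had at least 1 FPKM, where 80.0% of all genes did.

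Markers of the cell types attached to the wing disc ranged widely. The list for adult muscle precursors, cells on the notum, had its median at percentile 53.2. In it 11 genes had at least 1 FPKM, where 54.9% of all genes did. The highest were how, rols and Mef2, at 48.5, 32.2 and 15.3 FPKM. Below them, twi had 9.99 FPKM, Him 7.14 FPKM and htl, the FGF receptor gene of these cells, 6.38 FPKM. Lower still were zfh1, kirre and hoe1, at 2.66, 1.87 and 0.122 FPKM. The differentiation genes nau and lmd were at 0.170 FPKM and listed at 0. The tracheal list had a median of 100 FPKM, but its high members verm, pio, Gasp, serp and obst-A, between 114 and 271 FPKM, encode cuticle and apical matrix proteins that other epithelia also make. The more specific genes trh and the FGF receptor gene btl had 25.5 and 2.74 FPKM. Of 20 hemocyte genes, 12 had at least 1 FPKM, near the 54.9% of all genes, with a median at percentile 46.4. The highest were sn and Ppn, which other cells express, at 119 and 111 FPKM. The engulfment receptor genes drpr and crq had 37.5 and 30.2 FPKM, glec 21.02, Pvr 16.1 and ush 14.2 FPKM. He had 1.21 FPKM, Hml 0.506 FPKM and the phagocytosis receptor gene eater 0.386 FPKM.

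RNA genes of the male dosage compensation complex were measured, whereas Y-linked fertility genes were near 0. The noncoding RNA genes roX1 (chromosome X, 3857230 to 3862697) and roX2 (chromosome X, 11579065 to 11580432) had 179 and 114 FPKM. The protein genes of the complex, mle, msl-3, msl-1, msl-2 and mof, lay between 17.4 and 33.4 FPKM. Of 12 Y-linked genes, 10 were listed at 0 and 0 reached 1 FPKM, against 24.7% and 54.9% of all genes. In Act-Aac11-IR 3 of 12 reached 1 FPKM, where 80.3% of all genes did, and in Act 6 of 12, where 80.0% did. CG41020, CG42619, CG42620 and Pp1-Y1 were listed at 0 in every library. The Y-linked fertility genes are used in the testis. The yolk protein genes Yp1, Yp2 and Yp3, made in adult females, had 0.123, 0.0832 and 0.393 FPKM. The sex determination genes Sxl and tra had 66.3 and 18.5 FPKM, values that do not separate their male and female forms. The germline list had its median at percentile 43.0, and 13 of its genes had at least 1 FPKM, where 54.9% of all genes did. The highest were tud, ovo and del, at 70.5, 39.8 and 21.2 FPKM. The helicase gene vas had 0.618 FPKM and nos 0.313 FPKM.

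**Figure D4:**
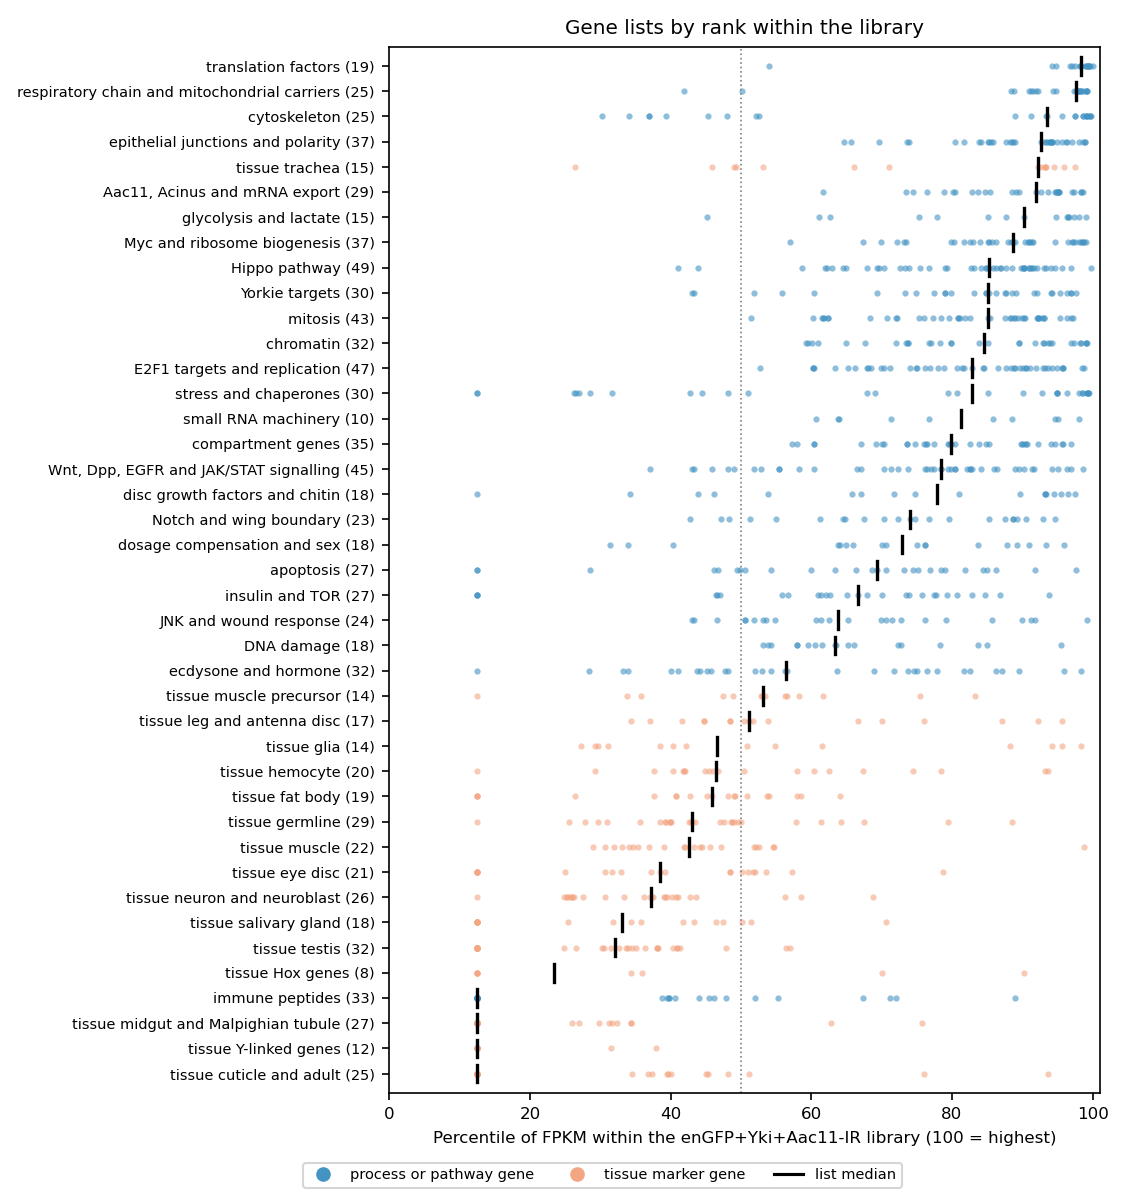
Percentile of FPKM within the enGFP+Yki+Aac11-IR library for the members of 41 gene lists, with 1 point per gene, blue for processes and pathways, orange for tissue markers and a black bar at each list median (number of genes in parentheses). Most processes sit on the right, with Hippo pathway and Yorkie targets at medians of 85.3 and 85.1, while most tissue lists lie to the left of percentile 50, with the testis list at 32.1 and, on the right, trachea at 92.3, muscle precursor at 53.2 and leg and antenna disc at 51.1, and the column of points at 12.4, where the median of immune peptides also lies, is the shared rank of genes listed at 0.

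Ribosomal protein genes led the library by FPKM. The 20 highest genes held 17.6% of the summed FPKM, and 19 of them encode cytosolic ribosomal proteins, all but Ef1alpha48D, an elongation factor gene, at 7979 FPKM. Ranked by FPKM times the longest transcript length, 9 of the 20 highest were ribosomal protein genes and the 20 held 11.6% of the total. RpL5 came first in that ranking with 1.43%, on a longest transcript of 3835 nt, so the ranking depends on the transcript chosen. By FPKM the highest was RpL41 at 31036 FPKM, then RpL39 at 16209 FPKM, both with short transcripts (320 and 288 nt), for which FPKM is sensitive to how fragment ends are treated. The 93 ribosomal protein genes together held 40.1% of the summed FPKM. Of these, 79 had at least 1000 FPKM, with a median of 3498 FPKM among them, and 8 had under 10 FPKM. The low ones were mostly second copies of well measured genes, namely RpS19b at 5.30 FPKM, RpL22-like at 1.67 FPKM, RpS5b at 1.63 FPKM and RpS10a at 0.178 FPKM, while RpL10Aa, RpL37b, RpS28a and RpS28-like were listed at 0. Pairs such as RpS14a and RpS14b, at 1704 and 657 FPKM, are near-identical copies that can share reads, so their split is uncertain.

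Outside the ribosomal proteins, a ranking added after the values were seen held cytoskeleton, chaperone and chromatin genes. After Ef1alpha48D came Act5C, the main cytoplasmic actin gene, at 4170 FPKM, then yki, the hypusinated translation factor gene eIF-5A at 3584 FPKM, the chromatin decondensation gene Df31 at 3425 FPKM and the tubulin genes betaTub56D and alphaTub84B at 3270 and 3126 FPKM. The constitutive chaperone gene Hsc70-4 had 2978 FPKM and the nucleoside diphosphate kinase gene awd 2644 FPKM. The testis tubulin gene betaTub85D and the muscle actin genes Act57B, Act79B, Act87E and Act88F all had under 10 FPKM. Among genes that the file names only by CG number, the highest were CG9894 (current symbol Bacc) at 1605 FPKM, the cyclophilin gene CG2852 at 1399 FPKM, CG18431 (current symbol nw) at 1279 FPKM, CG3800 (current symbol CNBP) at 1271 FPKM and CG1746, an ATP synthase subunit gene, at 1269 FPKM. The other 5 of the 10 highest were CG15353, CG16817, CG32230, CG17737 and CG6770, between 676 and 921 FPKM.

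Genes of growth and division were measured without exception. The 37 genes of Myc and ribosome biogenesis had a median of 71.0 FPKM at percentile 88.7, led by the nucleolar genes Nlp at 721 FPKM, CG7637 (current symbol Nop10) at 513 FPKM and CG8801 (current symbol Non1) at 438 FPKM, and with Mnt, the antagonist of Myc, lowest at 10.7 FPKM. The RNA polymerase I subunit genes RpI1 and RpI135 had 47.7 and 28.8 FPKM. All 47 genes of the E2F1 target and replication list reached 1 FPKM, against 54.9% of all genes, with a median of 47.3 FPKM at percentile 82.9. The nucleotide enzyme gene dUTPase had 544 FPKM, mus209, which encodes the sliding clamp PCNA, 426 FPKM and RnrS, a ribonucleotide reductase subunit gene, 172.5 FPKM. The 6 genes of the MCM helicase lay between 84.0 and 120 FPKM, and the origin recognition genes were lower, with lat at 6.33 FPKM and Orc6 at 13.9 FPKM.

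The cell cycle regulators differed in level. CycD, which drives growth with Cdk4, had 47.3 FPKM and the Cdk inhibitor gene dap 80.2 FPKM, above CycE at 31.0 FPKM. The phosphatase gene stg, which triggers mitosis, had 72.9 FPKM and its germline relative twe 4.87 FPKM. The 43 mitosis genes had a median of 54.4 FPKM at percentile 85.1, led by polo at 246 FPKM. Genes of the chromosomal passenger complex had like levels, with Incenp at 110 FPKM, ial (the kinase Aurora B) at 106 FPKM and borr at 100.4 FPKM. Of the 18 DNA damage genes, all had at least 1 FPKM, against 54.9% of all genes. They were led by the checkpoint kinase gene grp at 162 FPKM, with a median of 17.0 FPKM.

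Among cell death genes, the inhibitor th was the highest. Of 27 genes, 24 had at least 1 FPKM, against 54.9% of all genes, with a median of 23.4 FPKM. The inhibitor genes th, Iap2 and Bruce had 279, 39.0 and 28.4 FPKM. Of the genes that antagonize DIAP1, W (hid) had 30.1 FPKM and rpr 13.6 FPKM, skl had 0.0477 FPKM and grim was listed at 0. The limit that a count of 0 allows, 3 fragments, corresponds to 0.114 FPKM for grim. The initiator caspase gene Nc and its adaptor Ark had 45.0 and 20.0 FPKM, and the effector caspase genes Ice and Dcp-1 had 59.0 and 51.9 FPKM. The effector caspase gene decay was listed at 0, with a limit of 0.187 FPKM, and Damm had 1.26 FPKM. The TNF ligand gene egr was low at 4.13 FPKM beside its receptor genes CG10176 (current symbol grnd) and wgn at 95.7 and 25.0 FPKM.

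JNK and wound response genes were intermediate. The kinase genes bsk and hep had 78.7 and 33.4 FPKM, and the target genes puc and Mmp1 had 14.4 and 27.8 FPKM. The relaxin-like gene CG14059 (current symbol Ilp8), made by damaged or overgrown discs, had 15.1 FPKM, with a 95% counting interval of 13.0 to 17.6 FPKM. The transcription factor gene Ets21C had 1.48 FPKM. The highest member was the glutathione transferase gene GstD1, at 1156 FPKM, also the highest of the 21 glutathione S-transferase genes.

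Chaperone genes ranged from among the highest of the library to 0. The small heat shock genes Hsp23, Hsp27 and Hsp26, neighbours on chromosome 3L, had 2259, 1512 and 458 FPKM, and Hsp22 had 39.6 FPKM. The heat-inducible gene Hsp68 had 105.5 FPKM and Hsp67Ba 80.2 FPKM. The heat-inducible Hsp70 genes measured 4.48 FPKM for Hsp70Ba and 2.205 FPKM for Hsp70Bc, and Hsp70Aa and Hsp70Ab were listed at 0, although these near-identical copies can share reads. The stress transcription factor gene crc (ATF4) had 1096 FPKM and Hsf 42.6 FPKM. Small heat shock genes and br, at 181 FPKM, are known as ecdysone responsive.

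Of the hormone genes, the ecdysone receptor and early genes were measured and several later ones were under 1 FPKM. EcR and usp, the partners in the ecdysone receptor, had 46.3 and 33.9 FPKM, and the early genes Eip75B and Eip74EF had 31.4 and 26.5 FPKM. The disc eversion gene ImpE2 had 402 FPKM, the highest of the 32 hormone genes. Hr46 (the nuclear receptor Hr3) and Eip93F, which act later, had 0.360 and 0.126 FPKM. The ecdysone synthesis genes of the prothoracic gland lay at or under 2.01 FPKM, the value of phm, and spok was listed at 0. The 11 Eig71E genes of the salivary gland and gut held 10 listed at 0, where 24.7% of all genes were. The insulin-like peptide genes Ilp2, Ilp3 and Ilp5, made in brain neurons, were listed at 0, whereas the kinase genes Akt1 and Tor had 61.5 and 32.7 FPKM.

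Immune effector genes were mostly listed at 0. Of 33 immune genes, 18 were listed at 0, against 24.7% of all genes and 60.1% of the 1380 genes with the shortest transcripts. Among the 18 were AttA, DptB, Mtk, IM1 and CecA1, whose transcripts ran from 268 nt for Mtk to 790 nt for AttA. Whether immune genes were at 0 more often than other genes of like transcript length was not tested. The 9 immune genes that reached 1 FPKM included the signalling genes cact, Rel, dl and Tl, at 72.5, 26.9, 25.7 and 21.04 FPKM. They also included the peptide genes Def and Drs, at 5.43 and 2.09 FPKM. Genes of epithelial junctions were all measured. The gap junction genes inx2 and inx3 had 604 and 601 FPKM, the E-cadherin gene shg 111 FPKM, the adhesion gene Fas3 345 FPKM and the septate junction genes Cont and cora 188 and 116 FPKM. All 37 genes of the junction and polarity list, which was added after values were seen, had at least 1 FPKM, against 54.9% of all genes.

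Energy and chromatin genes were measured throughout with few exceptions. All 15 glycolysis genes had at least 1 FPKM, against 54.9% of all genes. They were led by Gapdh2 at 630 FPKM, with ImpL3, the lactate dehydrogenase gene, at 36.1 FPKM and Hex-C at 1.02 FPKM. Of the mitochondrial genes, the ADP/ATP carrier gene sesB had 1235 FPKM and its neighbour Ant2 3.71 FPKM, and Cyt-c-p had 252 FPKM beside 0.510 FPKM for its testis paralog Cyt-c-d. Chromatin genes had a median of 52.5 FPKM, with the histone variant gene His2Av at 1063 FPKM. The Polycomb genes Pc and Psc were low for the list at 14.7 and 13.0 FPKM. In the small RNA machinery, Dcr-2 had 343 FPKM and Dcr-1 14.3 FPKM.

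Several families of differentiated cells had most members listed at 0, where 24.7% of all genes were, and 60.1% of the tenth of genes with the shortest transcripts. Of 59 odorant receptor genes 42 were listed at 0, as were 39 of 61 gustatory and 33 of 59 ionotropic receptor genes, 38 of 46 seminal fluid protein genes and 12 of 16 Jonah serine protease genes. The Cpr cuticle protein genes were mixed, as 17 of 69 had at least 1 FPKM, against 54.9% of all genes, and 30 were listed at 0. They were led by Cpr49Ac at 119 FPKM and Cpr49Ah at 116 FPKM. All 71 mitochondrial ribosomal protein genes had at least 1 FPKM, with a median of 53.2 FPKM. Of 42 histone genes, 36 were listed at 0, and those measured were led by His4r at 2592 FPKM. The histone genes of the cluster are repeated, near-identical copies.

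**Figure D5:**
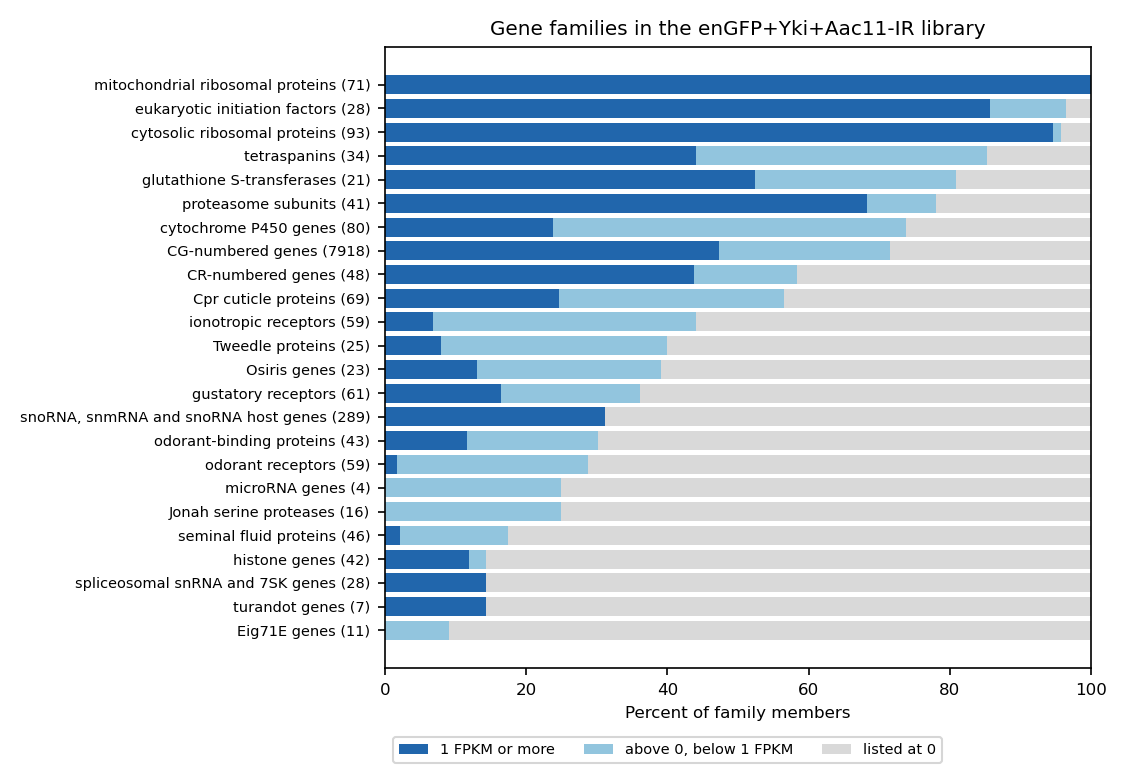
Share of the members of 24 gene families, named by symbol, that had at least 1 FPKM (dark blue), lay above 0 and below 1 FPKM (light blue) or were listed at 0 (grey) in the enGFP+Yki+Aac11-IR library, with the number of genes in parentheses. All 71 mitochondrial ribosomal protein genes are dark blue, while the bars of seminal fluid, Eig71E and turandot genes are mostly grey.

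Chromosome 4 stood apart in level. Of its 81 genes, 59 (72.8%) had at least 1 FPKM and 7 were listed at 0, and the median of the measured genes was 67.2 FPKM, beside 25.4 FPKM on X and 27.3 to 28.12 FPKM on the arms 2L, 2R, 3L and 3R. On X 59.4% of genes had at least 1 FPKM, and on 2L 50.9%. Of 21 genes placed on Y, 19 were listed at 0, against 24.7% of all genes, and the highest had 0.248 FPKM.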

How the data were processed

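The authors deposited FPKM values for 13990 genes in 2 separately normalized tables, 1 with the enGFP+Yki+Aac11-IR library and 1 with both Act libraries. Per the labels' protocols, 4 µg of total RNA was depleted of ribosomal RNA and made into TruSeq v2 libraries. CASAVA 1.4, TopHat2 2.0.12, Cuffdiff 2.2.1 and dm6 are named, with no role, in the submitters' processing notes. Annotation and strand setting: not given in the sources used here, so overlapping genes cannot be told apart.

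Percentiles were computed within each library from the deposited FPKM, with ties averaged. Symbols were matched to the RefSeq gene table of the Release 6 assembly (13747, or 98.3%), and lengths and coordinates come from Ensembl release 115. The depth step used 4255 genes with 1 transcript over 1000 nt. In the enGFP+Yki+Aac11-IR library 88.9% of their low values were whole fragments to within 0.2. Evenly spread values would give 40% at a depth fixed beforehand. Here the depth was picked to bring values nearest to whole numbers, so the share by chance is above 40% and was not computed. On data simulated from whole counts under the same model, the step returned the depths put in. Intervals are Poisson intervals of fragments read back with that step and cover counting error only.

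The members and lists were chosen with earlier results of these data known. Entries were removed from the lists after the highest genes of the library had been seen, the rules that define families were edited after their values were seen, and 7 of the 41 lists and the 26 neighbour pairs were added at that stage. These counts and medians are therefore descriptions. By rule, named genes were the 5 marker genes, the 20 highest genes, the 10 highest CG genes, members of the Hippo, target and compartment lists, the 3 highest and 2 lowest of other lists and the highest of each family, not all of which are printed. Many others were picked for their known role after their values were seen. Each group has 1 library, so no test was run. Alternatives were other FPKM thresholds, other sets of ranked genes, ranking by FPKM times transcript length (the longest annotated transcript), and list means. Python 3.11.15 was used.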

Additional observations from a re-analysis of the deposited data

How the results depend on the processing

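No paired analysis was possible because each group has 1 library. The 7682 genes at 1 FPKM or more and the 3460 listed at 0 stayed within 1.5 times under every threshold and gene set tried (0.5 FPKM, 5 FPKM, no small structural RNAs, and for the zeros protein-coding genes). The 20 highest genes held 17.8% of summed FPKM without small structural RNAs and 11.6% by FPKM times transcript length, against 17.6%. The median percentile of each of the 41 lists is called moved where it left the 95% binomial interval of that median over the list's genes. Ranked among genes of at least 1 FPKM, 25 of 40 list medians moved, to 74.2 for Hippo pathway, 74.1 for Yorkie targets, 63.2 for compartment genes, 53.2 for Notch and wing boundary, 61.8 for Wnt, Dpp, EGFR and JAK/STAT signalling, 68.9 for E2F1 targets and replication, 72.9 for mitosis, 79.3 for Myc and ribosome biogenesis, 48.9 for apoptosis, 40.99 for JNK and wound response, 43.5 for insulin and TOR, 71.8 for chromatin, 56.5 for dosage compensation and sex, 13.1 for fat body, 9.07 for salivary gland, 44.0 for midgut and Malpighian tubule (2 genes left), 13.2 for muscle, 24.6 for neuron and neuroblast, 29.8 for hemocyte, 20.2 for muscle precursor, 12.0 for eye disc, 27.7 for leg and antenna disc, 8.93 for germline, 11.2 for cuticle and adult and 33.4 for DNA damage. Among genes above 0, 16 of 41 list medians moved, to 73.2 for compartment genes, 71.3 for Wnt, Dpp, EGFR and JAK/STAT signalling, 84.9 for Myc and ribosome biogenesis, 51.98 for JNK and wound response, 42.3 for ecdysone and hormone, 64.0 for dosage compensation and sex, 31.6 for fat body, 9.64 for midgut and Malpighian tubule, 23.8 for muscle, 16.8 for neuron and neuroblast, 28.96 for glia, 29.4 for hemocyte, 35.02 for leg and antenna disc, 13.3 for Y-linked genes, 24.6 for germline and 51.4 for DNA damage. By FPKM times transcript length, 13 of 41 list medians moved, to 91.3 for Hippo pathway, 91.0 for Yorkie targets, 87.8 for compartment genes, 85.3 for Wnt, Dpp, EGFR and JAK/STAT signalling, 78.7 for JNK and wound response, 77.4 for insulin and TOR, 12.3 for midgut and Malpighian tubule and for Y-linked genes and for cuticle and adult and for immune peptides, 41.1 for neuron and neuroblast, 95.7 for epithelial junctions and polarity and 88.6 for respiratory chain and mitochondrial carriers. Among protein-coding genes, 4 of 41 list medians moved, to 11.7 for midgut and Malpighian tubule and for Y-linked genes and for cuticle and adult and for immune peptides. With the mean percentile in place of the median, 3 of 41 list medians moved, to 16.1 for Y-linked genes, 95.9 for translation factors and 91.7 for respiratory chain and mitochondrial carriers. The count of list members called measured changed by more than 1.5 times in 2 of 41 lists at 0.5 FPKM and in 5 of 41 at 5 FPKM. The list percentiles thus depend on which genes are ranked. Y-linked genes gave no value among genes of at least 1 FPKM. Values of a few fragments are imprecise, and FPKM of short transcripts depends on how fragment ends are treated.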

Other observations

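Some genes of sensory receptor and seminal fluid families had values above 1 FPKM, and several overlap a gene with a higher level on the other strand. Or43b, an odorant receptor gene, had 14.5 FPKM and overlaps lin19 (current symbol Cul1), a ubiquitin ligase scaffold gene at 119 FPKM. Ir51b had 6.203 FPKM and overlaps row, at 98.0 FPKM, and Acp95EF had 18.8 FPKM and overlaps Spase22-23, a signal peptidase subunit gene at 299 FPKM. The part of shared reads in these values was not tested. Among the sugar receptor genes of the Gr64 cluster on chromosome 3L, Gr64a had 13.3 FPKM and overlaps no annotated gene, Gr64b and Gr64c had 5.90 and 9.27 FPKM, Gr64e had 8.08 FPKM and Gr64d 2.94 FPKM. Gr64b and Gr64c overlap each other, as do Gr64d and Gr64e, so the split within each pair is uncertain. Gr64f, at 5.96 FPKM, overlaps CG11593, at 27.4 FPKM on the other strand.

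Among genes that the reference annotates as lncRNA, ncRNA or antisense RNA, the highest were CR42862 at 606 FPKM, CR42491 at 544 FPKM, snmRNA:158 at 286 FPKM and CR31144 at 255 FPKM. The genes snmRNA:331 and CR33328, at 538 and 290 FPKM, fell outside this set. The snoRNA host genes Uhg4 and Uhg2 had 163 and 111 FPKM. Of 289 snoRNA, snmRNA and snoRNA host genes, 199 were listed at 0, where 24.7% of all genes were, and 60.1% of the tenth with the shortest transcripts. The highest of the 289, snoRNA:Psi18S-531, had 1147 FPKM.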
